A study of Mus musculus with 12 samples.

Results

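The 10 genes described here are members of the Notch pathway: the receptors Notch1, Notch2 and Notch3, the ligands Dll1 and Dll3, the glycosyltransferase gene Rfng, the transcriptional repressors Hes1, Hes5 and Hey1, and the related gene Hes6. They were chosen by name as listed Notch pathway genes, and all 10 were among the 18879 genes of the deposited cell by gene table. Single-cell RNA sequencing was carried out on newborn prefrontal cortex (postnatal day 0) of mice labelled C57BL/6J, although the study's methods name C57BL/6N mice for making the line. The 3 genotypes compared were for the neuronal transcription factor gene Myt1l: heterozygous mutants (HET), homozygous mutants (HOM) and wild-type mice (WT). The mutant allele carries a 7 bp deletion made with CRISPR/Cas9 in exon 6, which shifts the reading frame and ends it at residue 78. Each genotype was 1 library made from 2 pooled animals, sequenced in 4 runs, and the deposited table does not link a cell to its animal. Differences between HET or HOM and WT are therefore differences between single libraries, without replicates, and no test was possible across animals. The genotype of a library is that of the deposited cell table. The study's text gives the same cell numbers to the genotypes in another order, under which every value of HET, HOM and WT below would belong to another genotype.

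Notch signalling acts between neighbouring cells. A Delta ligand on one cell binds a Notch receptor on the next, the receptor is cleaved, and its intracellular part joins the DNA-binding protein RBPJ to switch on Hes and Hey genes. HES1, HES5 and HEY1 repress proneural genes and keep neural progenitors undifferentiated, whereas HES6 is known to oppose HES1 and is expressed in differentiating neuronal precursors. In the newborn cortex the pathway is known for maintaining progenitors and for promoting astrocytes, and Notch in vessels controls endothelial and mural cells.

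The libraries held 12072 HET cells, 13688 HOM cells and 10503 WT cells, with medians of 1099, 1330 and 1045 molecules per cell. A total of 199 cell barcodes were shared by the HET and WT libraries, 215 by HOM and WT, and 240 by HET and HOM. Transcripts of the X-inactivation gene Xist were found in 2 HET cells, 1 HOM cell and 2121 WT cells, and Y-linked transcripts in 1865, 2086 and 603. Cells with Xist were thus found almost only in the WT library, which also held cells with Y-linked transcripts. Every comparison of HET or HOM with WT over all cells therefore also compares libraries of unlike sex composition. Genotype and sex cannot be told apart in it. Only comparisons limited to cells with a Y-linked transcript set like sex against like. The deposited names of the glial and progenitor types were checked against markers. Radial glia and astrocyte markers were highest in the immature astrocyte types, oligodendrocyte lineage markers in Oligodendrocytes, and cell cycle markers in Ganglionic eminences. Intermediate progenitor markers were highest in SVZ1, at a summed level of 1552. Cortical layer neuron markers summed to 6032 in SVZ1, next to the highest, 6397 in LayerII-IV [1-P]. SVZ1 is counted with the progenitors by its deposited name only. Markers of the ganglionic eminence and interneuron lineage were highest in Int4, at a summed level of 4003, and in Int3, at 3227, and not in the type named Ganglionic eminences. Endothelial markers were highest in Endothelial1, but the type named Endothelial2 had a summed level of 13740 for mural cell markers, against 174 for endothelial markers, and is called here by its deposited name. Myt1l itself had 889 depth-corrected counts per 1000000 in HET and 1406 in HOM LayerII-IV [1-P] neurons, against 737 in WT. These 5′ tags do not test the deletion.

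A level below is the depth-corrected count of a gene per 1000000, summed over the cells of a type in a library. The library makes one tag per molecule, so levels are not divided by transcript length, and they are compared between cell types and libraries but not between genes. The members were unequally measured. Hes6 was above 0 in 14.1% of all 36263 cells and Hes5 in 9.06%, whereas Notch2 was above 0 in 0.637%. Of 21 deposited cell types, 19 had at least 100 cells over all libraries and are described.

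Among the receptors, Notch1 was highest in glia, vessel types and Ganglionic eminences. The other type counted with the progenitors, SVZ1, which also had high cortical layer neuron markers, had the lowest mean of all 19 types, at 2.71. Its range over libraries overlapped those of neuron types such as LayerV-VI [12-P]. The mean Notch1 level over the 3 libraries was 180 in Astrocytes (immature) 1, 163 in Endothelial2, 145 in Ganglionic eminences, 121 in Endothelial1, 112 in Oligodendrocytes and 107 in Astrocytes (immature) 2. The ranges of these 6 types over libraries overlapped from each to the next, and all lay above the seventh, Int4 interneurons at 27.8. Notch2 had its highest level in Astrocytes (immature) 1, at 63.8, apart from the 13.4 of Astrocytes (immature) 2. Notch3 was highest in Endothelial2, at 222, where the library values ran from 169 to 316. The astrocyte types followed at 38.2 and 36.4. Notch3 is known as the receptor of mural cells, and Endothelial2 was the type with the mural markers.

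The ligands had a narrower pattern. Dll1, which activates Notch in neighbouring cells, had a mean level of 113 in Oligodendrocytes and 57.9 in Ganglionic eminences. Dll3, known to act within the cell that makes it rather than on its neighbours, had 291 in Oligodendrocytes, 81.8 in Ganglionic eminences and 28.6 in SVZ1. For both genes the first and second of these types were apart from each other and from the next. Oligodendrocytes and Ganglionic eminences were thus also types with a high Hes5 level, whereas both astrocyte types had Hes5 with Dll1 at 7.04 or below and Dll3 at 10.4 or below.

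**Figure D1:**
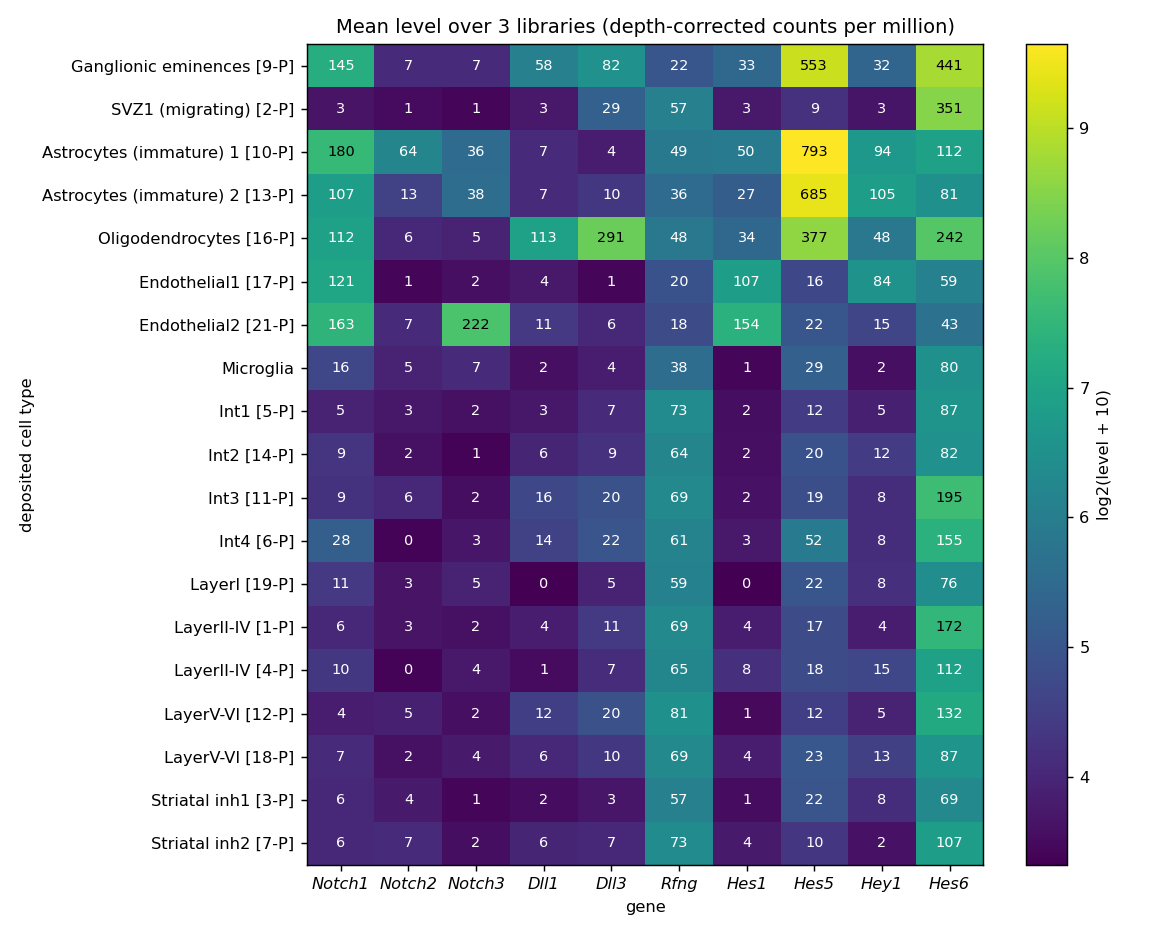
Mean level of each gene (columns) in each deposited cell type (rows) over the HET, HOM and WT libraries, in depth-corrected counts per 1000000, printed in the cells and coloured by log2(level + 10). Hes5 is brightest in Astrocytes (immature) 1 at 793, and Notch3 in Endothelial2 at 222, while Rfng is spread over the neurons.

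The Hes and Hey genes split between vessels, glia and progenitors. Hes5, the main Notch effector of neural progenitors, had 793 in Astrocytes (immature) 1, 685 in Astrocytes (immature) 2, 553 in Ganglionic eminences and 377 in Oligodendrocytes, followed at a distance by Int4 at 51.8. The ranges of the first 4 overlapped from each to the next. Glia held 83.2% of all Hes5 counts in HET, 76.2% in HOM and 76.4% in WT, and progenitors 8.02%, 16.7% and 13.9%. Of all cells, glia made up 20.9% in HET, 24.0% in HOM and 18.6% in WT, and progenitors 7.75%, 9.06% and 14.9%. Only in HOM was the progenitor share of Hes5 counts well above the share of cells. Hes1 was highest in the vessel types, at 154 in Endothelial2 and 107 in Endothelial1, with overlapping ranges, and was 50.4 in Astrocytes (immature) 1. Hey1 had 105 in Astrocytes (immature) 2, 94.1 in Astrocytes (immature) 1 and 84.3 in Endothelial1, with ranges overlapping from each to the next. Hes6 had 441 in Ganglionic eminences, 351 in SVZ1 and 242 in Oligodendrocytes, again with ranges overlapping from each to the next. Of these 3 types, only the migrating SVZ1 cells were low in Hes5, at 8.69, and in Notch1, at 2.71. In neuron types Hes6 ran from 68.8 to 195, and with 80.0 in Microglia and 59.1 in Endothelial1 the lower of these levels cannot be told from background. Rfng, which adds sugars to Notch receptors, was highest in LayerV-VI [12-P] neurons at 80.8, overlapping the next type, and ranged down to 17.8 in Endothelial2.

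Hes5 and Hes6, the best measured of the effectors, lie on chromosome 4 (154960923 to 154962371, plus strand) and chromosome 1 (91411483 to 91414038, minus strand) of mm10 in the GENCODE M21 annotation. Their upstream sequences are shown because the patterns of these genes differ, in particular in SVZ1. Each is the 250 bases before a RefSeq start on GRCm38.p6, written 5′ to 3′ on the strand of the gene, with matches to the RBPJ core letters TGGGAA, or TTCCCA on the other strand, in capitals.
Hes5, chr4:154960673-154960922, plus strand: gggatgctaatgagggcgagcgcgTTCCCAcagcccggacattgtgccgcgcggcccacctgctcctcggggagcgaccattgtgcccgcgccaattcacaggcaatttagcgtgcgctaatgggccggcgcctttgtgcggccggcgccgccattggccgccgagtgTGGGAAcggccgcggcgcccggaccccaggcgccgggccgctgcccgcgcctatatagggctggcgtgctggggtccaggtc
Hes6, chr1:91414039-91414288, minus strand: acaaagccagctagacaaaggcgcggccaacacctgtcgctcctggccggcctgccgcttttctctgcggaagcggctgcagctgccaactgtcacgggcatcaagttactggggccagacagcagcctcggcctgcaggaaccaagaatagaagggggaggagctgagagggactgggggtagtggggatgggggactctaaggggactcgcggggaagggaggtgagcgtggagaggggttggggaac
The Hes5 window held a match at bases 226 to 221 and another at bases 82 to 77 before the start, and the Hes6 window held none. At least 1 match was found in 21.6% of 32851 RefSeq promoters and at least 2 in 2.77%. Of the 10 members, 8 were matched to 10 starts, and Hes5 was the only matched one with these letters. The other letters searched were the N box CACNAG, found in 36.7% of promoters, and the MYT1L letters AAAGTT, found in 12.4%, both strands included and with no overlap with the RBPJ matches. AAAGTT was present in 1 member window, that of Notch2, as AACTTT at bases 8 to 3 before the start. A match of letters is a description and not a binding site.

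Within each library, progenitors and glia were set against neurons for 7 members, as the log2 ratio of levels. Hes5 was higher in progenitors and glia by 4.69 in HET, 4.83 in HOM and 4.17 in WT, the largest of the 7 differences in each library. Within the pooled class, its level was 777 in HET, 671 in HOM and 488 in WT glia, and 181, 342 and 98.6 in progenitors. SVZ1 had the lowest mean of all types over the libraries, at 8.69. Its range of 7.87 to 9.86 overlapped those of Striatal inh2, down to 4.36, and Int1, down to 4.14. The contrast for Hes5 and Notch1 was thus one of glia and Ganglionic eminences against neurons, and SVZ1 was among the lowest neuron types in level. Notch1 was higher by 3.72, 3.55 and 3.12 in HET, HOM and WT, Hey1 by 3.00, 3.63 and 2.44, and Hes1 by 3.11, 2.49 and 2.60. Dll3 and Dll1 were higher by between 1.62 and 2.51. Hes6 differed least, by 0.46 in HET, 0.84 in HOM and 0.78 in WT. All 7 genes were higher in progenitors and glia in 3 of 3 libraries, and an exact sign-flip permutation test over 3 libraries cannot give a p below 0.25.

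Levels in HET and HOM were then compared with those in WT, in each cell type with at least 100 cells in both libraries and for each gene with a sum of at least 50 over both. A gene and cell type are called a pair. This filter retained 53 pairs of the members for HET and 55 for HOM, and all 10 genes had at least 1 pair in each. A low gene passes it mainly where it is high, so the counts do not describe every member in every cell type. In HET, 6 of the 53 pairs (11.3%) were at least 1.5-fold higher than in WT, against 5.14% of all 75383 pairs of genes and cell types, and 3 (5.66%) were at least 1.5-fold lower, against 8.27%. A further condition was that the exact 95% intervals of the shares of cells did not overlap. With it, 3 of the 53 HET pairs (5.66%) were higher, against 1.17% of all pairs, and 0 were lower, against 1.44%. In HOM, 7 of the 55 pairs (12.7%) were higher, against 7.3% of all 78506 pairs, and 8 (14.5%) were lower, against 13.3%. With intervals apart, 2 of the 55 HOM pairs were higher, against 2.94% of all pairs, and 2 of the 55 were lower, against 3.5%. The median log2 ratio of the members was -0.03 in HET and 0.03 in HOM, beside -0.01 and -0.06 over all pairs. As a whole the members thus did not shift in one direction. The median over all genes was within 0.10 of 0 in most types. The exceptions were HET Endothelial2, at 0.103, and HOM Int4 and HOM LayerII-IV [1-P], both at -0.13. The contrasts of HET and HOM share the WT library, so their values are given side by side and are not independent.

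**Figure D2:**
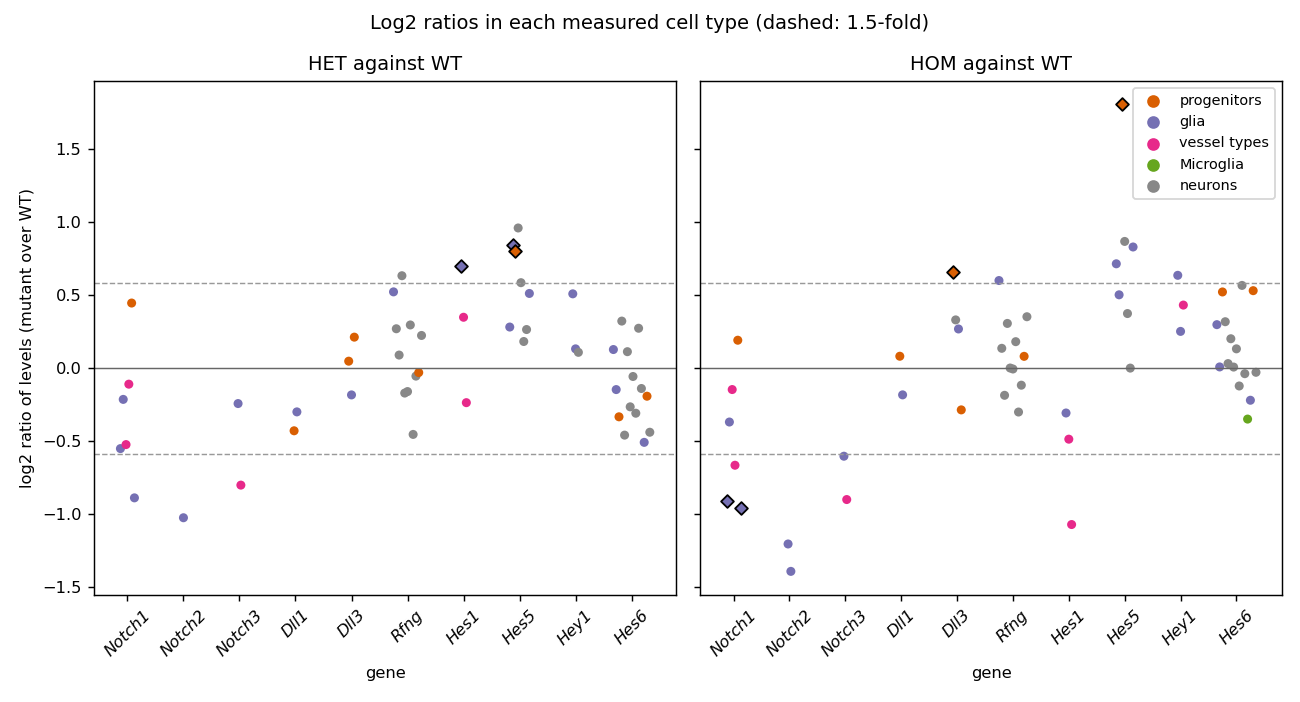
Log2 ratio of the level in HET (left) and HOM (right) over WT for each gene, with 1 point per measured cell type, coloured by class. Diamonds mark pairs at least 1.5-fold apart whose shares of cells above 0 had exact 95% intervals that did not overlap, and dashed lines mark 1.5-fold. Hes5 points lie at or above 0 in both panels, and Notch2 and Notch3 points lie below 0.

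Hes5 was above WT in 8 of 8 measured types for HET and 7 of 7 for HOM, with log2 ratios from 0.18 to 0.96 in HET and from 0.00 to 1.81 in HOM. Of these, 4 types in HET and 3 in HOM were neuron types, with 2 of the higher HET pairs and 1 of the higher HOM pairs counted above. Apart from Int4, their Hes5 was read as background. In Int4 the level was 63.4 in HET and 59.5 in HOM, against 32.6 in WT. The shares of Int4 cells, at 5.45%, 4.81% and 2.78%, had overlapping intervals. The range of Int4 over libraries overlapped that of Microglia, at 18.6 to 37.0. The WT level of Int4 thus cannot be told from background. The types other than neurons were both astrocyte types, Ganglionic eminences and Oligodendrocytes. Below the minimum sum this did not hold throughout, since WT was highest in Striatal inh1 and SVZ1, and HOM was below WT in LayerII-IV [4-P] and LayerV-VI [12-P]. In Ganglionic eminences its level was 463 in HET and 930 in HOM, against 266 in WT. The share of these cells with Hes5 was 28.7% in HET (24.0 to 33.7, exact 95% binomial interval), 37.8% in HOM (33.2 to 42.4) and 15.3% in WT (12.4 to 18.6). Both mutant libraries were above WT with intervals that did not overlap it, and the log2 ratios were 0.80 in HET and 1.81 in HOM. In HOM, Hes5 had the seventh highest ratio of the 4016 genes measured in this type. Cells with a Hes5 value of 3 or more made up 7.02% of HET, 13.9% of HOM and 3.87% of WT cells, and the highest value of a cell was 11, 25 and 13. These intervals cover counting error only, as do all intervals given here, and animals within a library may differ by more.

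In both astrocyte types and in Oligodendrocytes, Hes5 was also higher in the mutant libraries. In Astrocytes (immature) 1 its level was 750 in HET and 1012 in HOM, against 616 in WT, and the shares of cells, at 42.2%, 40.9% and 37.2%, had overlapping intervals. In Astrocytes (immature) 2 it was 875 in HET and 691 in HOM, against 488 in WT. The share of cells there was 38.2% in HET (36.0 to 40.4) and 30.4% in HOM (28.6 to 32.2), against 24.8% in WT (22.5 to 27.3), and only in HET did the ratio pass 1.5-fold, with a log2 value of 0.84 against 0.50 in HOM. Among cells of this type with at least 2000 molecules, the Hes5 levels were 1992 in HET and 1629 in HOM, against 1583 in WT. The log2 ratios were 0.33 and 0.04, so in deeply sequenced cells the difference was smaller in HET and small in HOM. At 1000 to 3000 molecules the log2 ratios were 0.64 and 0.37. Against WT cells with Xist, with at least 2000 molecules in all cells, they were 0.20 in HET and -0.093 in HOM. In Oligodendrocytes the level was 384 in HET and 479 in HOM, against 269 in WT, with shares of 24.3%, 23.9% and 16.6% whose intervals overlapped. In LayerII-IV [1-P] neurons, where Hes5 is not known to be active, 2.12% of HET, 1.79% of HOM and 1.27% of WT cells had a Hes5 value, at median depths of 1365, 1953 and 1047 molecules. Shares at this height, as in the neuron types other than Int4, were read as background, and the ratios there are not taken as expression.

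**Figure D3:**
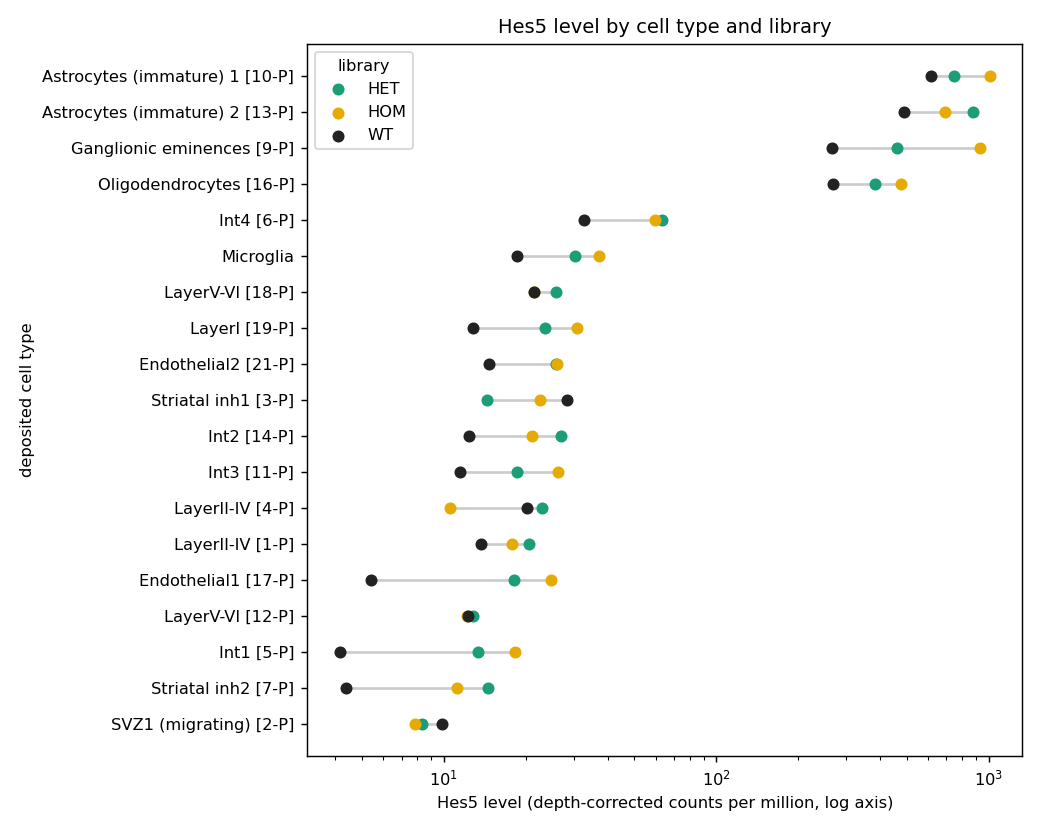
Hes5 level in each deposited cell type (rows), in depth-corrected counts per 1000000 on a log axis, with 1 point for each of the HET, HOM and WT libraries and a line spanning the 3. In Ganglionic eminences the HET and HOM points lie at 463 and 930, right of the WT point at 266, and all neuron types apart from Int4 have means of 22.9 or below.

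The cells named Ganglionic eminences were not alike in the 3 libraries. Their median depth was 4032 molecules in HET and 6050 in HOM, against 3545 in WT. Oligodendrocyte lineage markers summed to a level of 1208 in HET and 2354 in HOM, against 781 in WT, and radial glia and astrocyte markers to 5513 and 6647, against 4100. Markers of the ganglionic eminence and interneuron lineage summed to 1961 and 1631, against 2263. The share of these cells with Olig1, Olig2 or Pdgfra, genes of the oligodendrocyte lineage that are also made by some ventral progenitors, was 43.3% in HET (38.0 to 48.6) and 60.2% in HOM (55.5 to 64.8), against 32.7% in WT (28.7 to 36.8). In the cells with at least 1 of these 3 genes, the Hes5 level was 678 in HET and 1289 in HOM, against 438 in WT. In the cells with none of them it was 294 and 377, against 178, and the log2 ratio in HOM was 1.08 in place of 1.81. The shares of cells with Hes5 in this second set were 20.8% in HET (15.4 to 27.0) and 20.3% in HOM (14.7 to 27.0), against 13.4% in WT (10.1 to 17.4), with overlapping intervals. The part of these markers and of depth in the Hes5 result was not tested beyond these values.

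Further subsets of the Ganglionic eminences differed in the size of the Hes5 difference. With Top2a or Mki67, which mark cycling cells, the Hes5 level was 408 in HET and 696 in HOM, against 252 in WT. Without both it was 612 and 1434, against 296. At a matched depth of 4000 to 8000 molecules the Hes5 level was 596 in HET and 1032 in HOM, against 417 in WT. At 1000 to 3000 molecules it was 147 and 221, against 140, and the HET difference was small there. In cells with a Y-linked transcript, which compares like sex with like, it was 488 in HET and 836 in HOM, against 229 in WT, from 63, 57 and 41 cells. Against WT cells with Xist, the log2 ratio of Hes5 was 0.35 in HET and 1.31 in HOM with at least 2000 molecules in all cells, and 0.07 and 1.08 against all mutant cells, which are shallower. The intervals of the shares overlapped WT for both mutants at 1000 to 3000 molecules and in the cells with a Y-linked transcript, and for HET also at 4000 to 8000 molecules and without Top2a and Mki67.

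**Figure D4:**
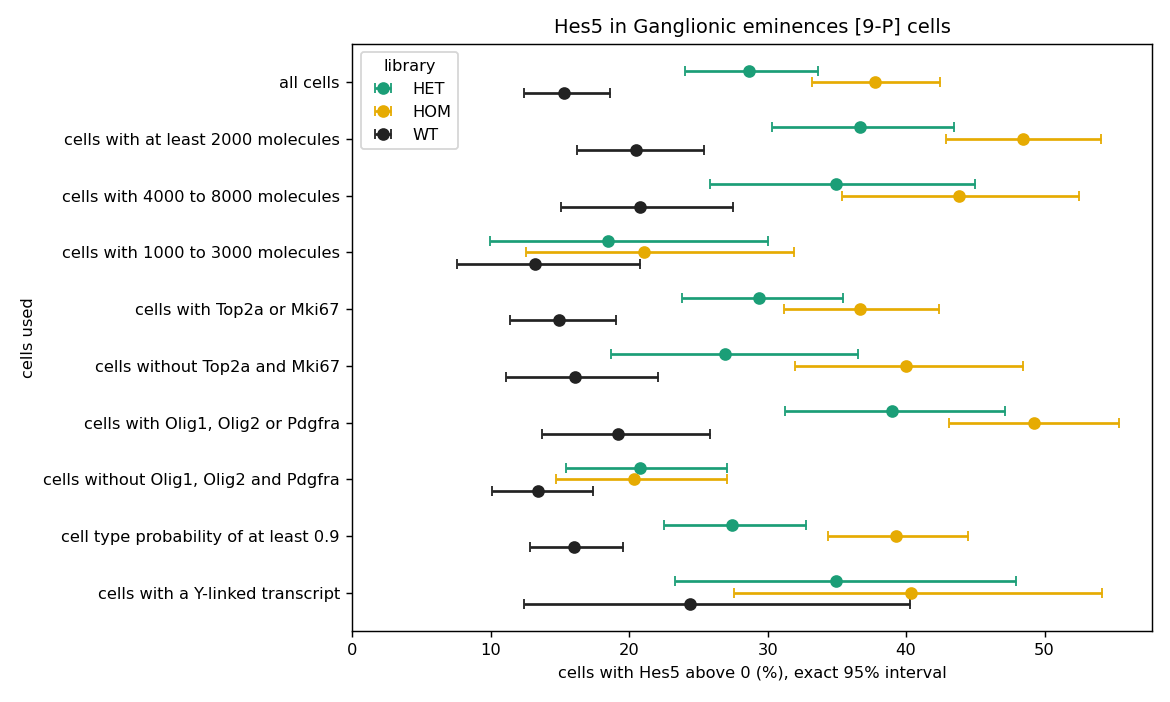
Share of Ganglionic eminences cells with a Hes5 value above 0 (horizontal axis, percent) in the HET, HOM and WT libraries for 10 sets of cells (rows), with exact 95% binomial intervals as bars. In all cells the shares are 28.7%, 37.8% and 15.3%, and the intervals of HET and HOM both overlap that of WT in the cells without Olig1, Olig2 and Pdgfra, with 1000 to 3000 molecules and with a Y-linked transcript.

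Notch1 was below WT in 5 of 6 measured types for each mutant, and the exception in both was Ganglionic eminences. In Astrocytes (immature) 1 its level was 166 in HET and 129 in HOM, against 243 in WT, and it was found in 17.1% of HET cells (12.7 to 22.4) and 13.3% of HOM cells (8.68 to 19.1), against 26.2% of WT cells (22.0 to 30.7). In Oligodendrocytes it was 88.5 in HET and 84.5 in HOM, against 164 in WT, and was found in 10.4% of HET cells (7.66 to 13.8) and 9.65% of HOM cells (7.31 to 12.4), against 17.8% of WT cells (13.2 to 23.3). The HOM intervals lay below WT in both types, with log2 ratios of -0.91 and -0.95. In HET the intervals overlapped WT, with log2 ratios of -0.55 and -0.89. The HOM ratio in Astrocytes (immature) 1 was -0.46 among cells with at least 2000 molecules, and in the Y-positive cells of this type the Notch1 level was 195 in HET, from 56 cells, and 179 in WT, from 32 cells. In Ganglionic eminences Notch1 was at 169 in HET and 142 in HOM, against 124 in WT. In the vessel types, Notch1 had 177 in HET and 120 in HOM Endothelial2, against 191 in WT, and 97.4 and 127 in Endothelial1, against 140, with overlapping intervals of the shares. In Astrocytes (immature) 2 it had 105 in HET and 93.9 in HOM, against 121 in WT, again with overlapping intervals. The same progenitors with the highest Hes5 difference thus did not have a lower Notch1 level.

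Notch2 and Notch3 were also below WT in the types where they were measured. In Astrocytes (immature) 1, Notch2 had a level of 48.9 in HET and 43.2 in HOM, against 99.4 in WT, from sums of 15, 9 and 49. In Endothelial2, Notch3 had 181 in HET and 169 in HOM, against 316 in WT, and the shares of cells, at 17.4%, 16.5% and 28.9%, had overlapping intervals. In Astrocytes (immature) 2, Notch3 had 38.7 in HET and 30.1 in HOM, against 45.7 in WT. All 3 measured HET pairs and all 4 measured HOM pairs of Notch2 and Notch3 were thus below WT, with overlapping intervals of the shares in each. The transcripts of the 3 receptors are long, at 9488, 10500 and 8016 bases for Notch1, Notch2 and Notch3 in the annotation, all in the longest of 4 equal groups of the measured genes, whereas Hes1, Hes5 and Hes6 are in the shortest group, at 1468, 1273 and 1573 bases. Over all genes of the longest group, 14.7% of pairs were at least 1.5-fold lower in HET and 24.3% in HOM, against 2.47% and 4.01% in the shortest group. At least 1.5-fold higher were 2.18% of pairs in HET and 2.62% in HOM in the longest group, and 8.19% and 12.7% in the shortest. The receptor and Hes5 ratios point the way of their length groups, whereas those of Hes1 and Hes6 had no common direction. The part of transcript length in these ratios was not tested.

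**Figure D5:**
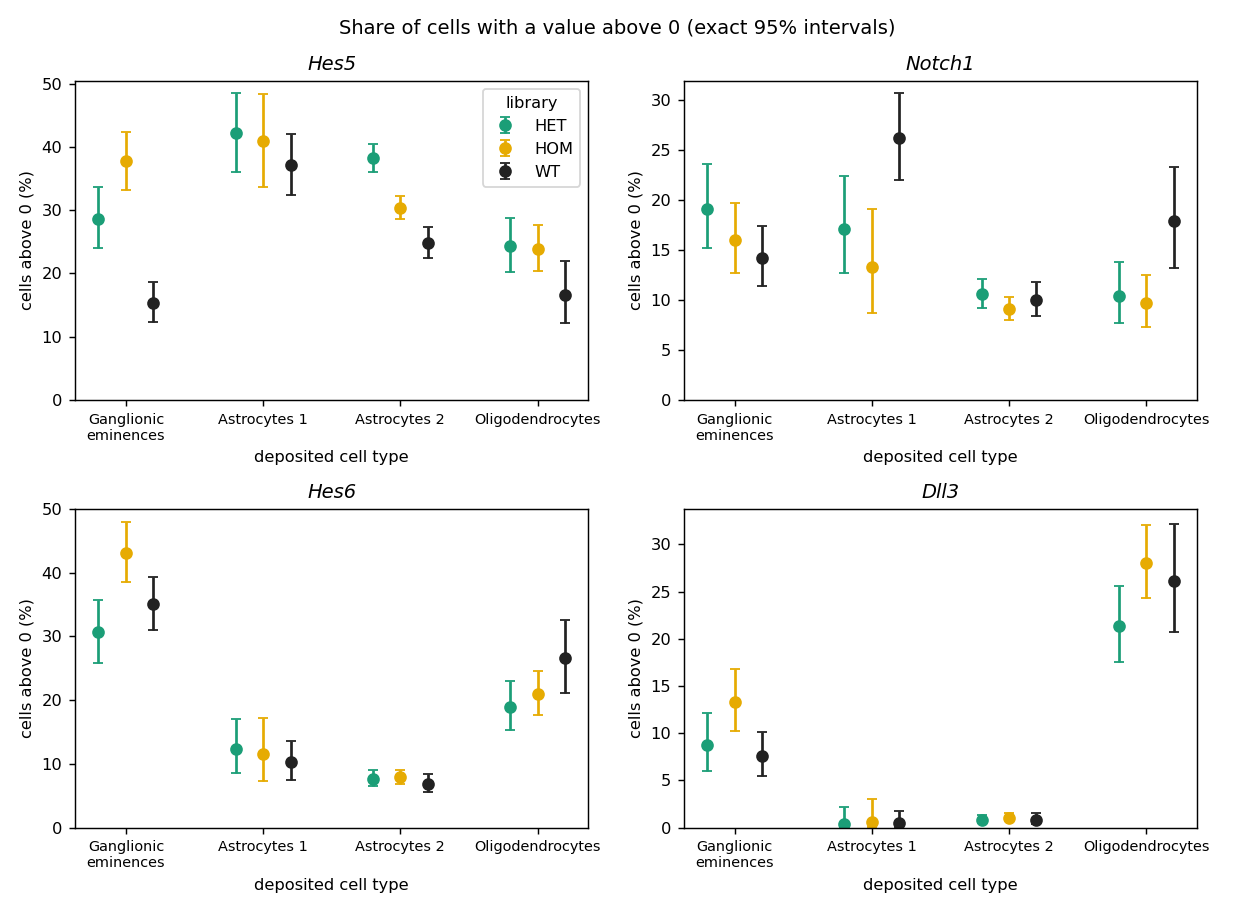
Share of cells with a value above 0 for Hes5, Notch1, Hes6 and Dll3 (panels) in 4 deposited cell types, in the HET, HOM and WT libraries, with exact 95% binomial intervals. Notch1 in Astrocytes 1 is found in 17.1% of HET and 13.3% of HOM cells, against 26.2% of WT cells, and Hes5 in Ganglionic eminences shows the reverse order.

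Hes1 had no common direction. In Astrocytes (immature) 2 its level was 37.7 in HET and 18.8 in HOM, against 23.2 in WT, and it was found in 3.98% of HET cells (3.14 to 4.97) and 1.80% of HOM cells (1.32 to 2.40), against 1.85% of WT cells (1.19 to 2.73). The HET interval lay above WT, with a log2 ratio of 0.70, and the HOM ratio was -0.31. In the cells without Olig1, Olig2 and Pdgfra the HET ratio was 0.25. Cells with at least 1 of these genes made up 39.8% of this type in HET, against 33.9% in WT. Against WT cells with Xist the HET ratio was 0.12, and 0.92 with at least 2000 molecules in all cells. None of these ratios moved from 0.70 by more than its counting error. In Endothelial1 Hes1 had 137 in HET and 76.9 in HOM, against 108 in WT, and in Endothelial2 168 and 94.4, against 198. HOM was thus below WT in all 3 measured types and HET in 1 of them. Hey1 was above WT in 3 of 3 measured types for each mutant, which were both astrocyte types with LayerV-VI [18-P] in HET, at 15.9 against 14.7 in WT, and with Endothelial1 in HOM. In Astrocytes (immature) 2 it was found in 10.1% of HET cells (8.78 to 11.6) and 10.4% of HOM cells (9.24 to 11.6), against 7.54% of WT cells (6.16 to 9.11), although the levels of 105 and 114, against 95.8, differed by less than 1.5-fold. In Astrocytes (immature) 1 Hey1 had 101 in HET and 110 in HOM, against 71.0 in WT, with overlapping intervals. In Endothelial1 it had 102 in HOM, against 75.4 in WT.

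Among the ligands, Dll3 in Ganglionic eminences had a level of 70.3 in HET and 107 in HOM, against 67.9 in WT. It was found in 8.71% of HET cells (5.99 to 12.1) and 13.3% of HOM cells (10.2 to 16.8), against 7.56% of WT cells (5.48 to 10.1), and the HOM interval lay just above that of WT with a log2 ratio of 0.66. In the cells without Olig1, Olig2 and Pdgfra the Dll3 shares were 6.44% and 8.47%, against 5.48%, with overlapping intervals. Against WT cells with Xist, with at least 2000 molecules in all cells, the log2 ratios of Dll3 were -0.71 in HET and -0.22 in HOM, so its direction depends on the WT cells compared. In Oligodendrocytes, the type with the most Dll3, the level was 249 in HET and 341 in HOM, against 283 in WT, with overlapping intervals. Dll1 had 103 in HET and 111 in HOM Oligodendrocytes, against 126 in WT, and 46.1 and 65.7 in Ganglionic eminences, against 62.0. No Dll1 pair reached 1.5-fold.

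Hes6 was measured in 14 types in HET and 15 in HOM, and no pair reached 1.5-fold. In SVZ1 its level was 278 in HET and 458 in HOM, against 317 in WT. It was found in 28.9% of HET cells (25.2 to 32.8) and 47.1% of HOM cells (43.6 to 50.6), against 32.1% of WT cells (29.2 to 35.1). The HOM library stood apart from the others, with a log2 ratio of 0.53, at median depths in SVZ1 of 3915, 4078 and 3889 molecules. In SVZ1 cells positive for Y-linked genes, the Hes6 shares were 27.9% in HET and 51.4% in HOM, against 31.3% in WT. In Ganglionic eminences the Hes6 level was 325 in HET and 588 in HOM, against 409 in WT. Rfng was above WT in 6 of 11 types for HET and 7 of 11 for HOM, with log2 ratios between -0.45 and 0.63, and 1 pair in each passed 1.5-fold. In Int3 it had 84.8 in HET, against 54.7 in WT, and in Astrocytes (immature) 2 it had 41.8 in HOM, against 27.6 in WT, both with overlapping intervals. In LayerV-VI [12-P], the type with its highest level, Rfng had 69.6 in HET and 77.5 in HOM, against 95.3 in WT.

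Detection of members in the same cells was compared over the 3 libraries together, as a description. In Ganglionic eminences, Hes6 was found in 65.6% of the 96 cells with Dll1, against 34.3% of the cells without, and in 65.6% of the 131 cells with Dll3, against 33.4%. Hes5 was found in 36.6% of cells with Dll3, against 25.2%, and in 58.9% of the 56 cells with Hes1, against 24.9%. Within libraries, the Hes5 shares with and without Dll3 were 45.2% and 27.1% in HET, 40.7% and 37.3% in HOM, and 24.4% and 14.6% in WT. Their intervals overlapped in each library, and the pooled shares also carry differences between libraries. Cells with a member were deeper than cells without, at medians of 6727 against 4440 molecules for Dll1, so higher shares of any gene occur among them. In Astrocytes (immature) 2, where Hey1 marked 551 cells, Hes5 was found in 57.7% of them, against 28.9% of the rest, at 1840 against 756 molecules. In the few cells of this type with Dll3, Hes5 was found in 5 of 15 in HET, against 38.2% of the rest, in 1 of 27 in HOM, against 30.7%, and in 2 of 11 in WT, against 24.9%. The difference was one of the HOM library, and the intervals overlapped in HET and WT. In Oligodendrocytes, Dll3 was found in 63.4% of the 134 cells with Dll1, against 20.6%, at 3531 against 1349 molecules.

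The genes with the most similar pattern were taken by Pearson correlation of log2 levels over the 19 cell types, among 7556 genes. These values describe 19 types that share 3 libraries, and they depend on the measure: of the 30 genes listed, 3 were also among the first 10 by Spearman correlation and 16 among the first 10 without the vessel types and Microglia. Hes5 was most like Sox21 (0.98), Hepacam and Rfx4 (both 0.96). Notch1 was most like Vim (0.97), Nes (0.96) and Mfge8 (0.94), genes known from radial glia. Notch3 was most like Axl (0.98), the Notch target gene Hey2 (0.97) and Slc13a3 (0.96), and Notch2 most like Slc14a2 (0.94), Entpd2 (0.93) and Veph1 (0.91). Dll1 and Dll3 were alike (0.92), and Gsx1, a progenitor transcription factor gene, was close to both (0.92 and 0.91). Helt (0.92) was the third for Dll1 and Fip1l1 (0.93) the first for Dll3. Hes1 was most like Cdc42ep1 (0.97), Prss23 and Fermt2 (both 0.94), and Hey1 most like Jam2 (0.93), Rgcc and Lxn (both 0.92). Hes6 had the lowest values, with Mad2l2 and Snrpc (both 0.89) and Cdk5rap2 (0.87). Rfng was like the neuronal genes Gdap1, Scg5 and Rtn1 (all 0.94). Between members, Notch1 was closest to Hes1 (0.90), with 0.84 for Hey1 and 0.76 for Hes5, and its value with Hes6 was -0.03.

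A wider list of 60 further Notch pathway genes was also measured, 57 of which were in the table. For HET, 44 of them gave 308 pairs, of which 7 (2.27%) were at least 1.5-fold higher and 49 (15.9%) lower, against 5.14% and 8.27% of all pairs, with a median log2 ratio of -0.14. For HOM, 45 gave 319 pairs, of which 15 (4.70%) were higher and 83 (26.0%) lower, against 7.3% and 13.3%, with a median of -0.24. Of the pairs in the longest length group of all genes, 14.7% in HET and 24.3% in HOM were at least 1.5-fold lower. At least 1.5-fold higher were 2.18% and 2.62%. Transcript lengths of the listed genes were not compared, and the part of length in these counts was not tested. The highest levels of the listed genes lay in different types. The endothelial ligand gene Dll4 had its highest mean level, 107, in Endothelial1, the mural target gene Heyl, 199, in Endothelial2, and Nrarp, a feedback inhibitor, 194, in Astrocytes (immature) 1. The proneural gene Neurod1 had its highest in SVZ1, at 493. Maml3, a coactivator of the Notch complex, had a level of 30.6 in HET and 39.3 in HOM SVZ1, against 69.9 in WT. Tle4, a corepressor that binds HES proteins, had 36.8 in HET and 30.8 in HOM Astrocytes (immature) 2, against 76.2 in WT, and 62.3 and 91.9 in Striatal inh2, against 194.

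In LayerII-IV [1-P] neurons, Tle1 had 68.8 in HET and 78.0 in HOM, against 117 in WT, and Dtx4, a Deltex family gene, had 26.6 and 27.5, against 45.3. Each of these pairs was at least 1.5-fold lower, with intervals apart, in both mutants, and no pair of the list was higher in both. In Ganglionic eminences, 5 genes of the list passed 1.5-fold with intervals apart in HOM, and they are named after their values were seen. Over all cell types, 6 of the 319 HOM pairs of the list were higher by this rule and 27 lower. Of all pairs of genes and cell types, 2.94% were higher and 3.5% lower. Lfng, a glycosyltransferase like Rfng, had 81.2 in HOM, against 34.0 in WT. Rbpj, the DNA-binding partner of Notch, had 29.4 in HOM, against 72.4 in WT. Neurog2, a proneural gene that switches on ligands, had 19.0 in HOM, from 5 cells, against 67.9 in WT, from 27 cells. Id4, listed as a target, had 24.2 in HOM, against 69.4 in WT, and Aph1a, a gene of the receptor-cleaving complex, had 93.3, against 50.2. Beside the higher Hes5 level, Lfng and Aph1a were thus higher in HOM, and Rbpj, Neurog2 and Id4 lower. The HOM cells of this type were deeper than those of WT and more often had Olig1, Olig2 or Pdgfra. The part of these differences in the 5 ratios was not tested.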

How the data were processed

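The authors dissociated P0 prefrontal cortices, fixed the cells in methanol, barcoded them by the ECCITE-Seq scheme and made 5′ libraries (Chromium v1). Per the labels and the study's methods, reads were processed with Cell Ranger 4.0.0 (mm10) and Seurat 4.0. Cells with under 200 or over 4000 genes, or over 15% mitochondrial reads, were removed, and cell types were transferred from a reference. The deposited matrix holds whole-number values that the authors corrected for depth, entered here as a score: totals per cell ran from 825 to 1952, while the deposited count of molecules ran from 499 to 17602, and both were equal in 617 of 36263 cells. A count model and thinning to a common depth were therefore not used. The deposited percent of mitochondrial reads described the cells, and the deposited fraction-scale cell type probability served for 1 alternative. The authors' comparison tables (fold changes, p-values, fractions of cells) were not used. Doublet handling: not given in the sources used here. No doublet caller was run.

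Values were summed per cell type and library and scaled to 1000000. Log2 ratios were mutant over WT, with no pseudocount, also between classes. An offset of 10 was added to levels for likeness. Shares have exact Clopper-Pearson intervals at 95%. Pairs were named where the ratio was at least 1.5-fold with intervals apart, and at each member's highest levels; likeness lists hold the 3 closest genes. Genes, lists and rules were chosen with earlier results of these data known. Alternatives were minimum sums of 20 and 200, TMM (edgeR 4.0.16), totals without technical genes, a mean per cell, depth bands, a cell type probability of at least 0.9 and a fold of 2. Cells with Xist, Y-linked, Olig or cycling transcripts were added after seeing the data. Some genes of the wider pathway list are counted but not reported by name here. Sequences came from the RefSeq promoter table. Hes1 and Hey1 were not matched in it. Scripts were tested on simulated data and used Python 3.11.15, numpy 2.4.6, pandas 2.3.3 and scipy 1.17.1.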

Additional observations from a re-analysis of the deposited data

How the results depend on the processing

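No paired analysis was possible because runs with the same number belong to different libraries and cells are linked to neither runs nor animals, and no replicate could be left out for the same reason. Against 6 higher and 3 lower member pairs in HET and 7 and 8 in HOM, a minimum sum of 20 gave 10 and 13 of 81 pairs in HET (9.07% and 13.5% of all genes' pairs) and 12 and 23 of 86 in HOM (9.88% and 18.9%). A minimum sum of 200 gave 2 and 0 of 16 in HET (1.88% and 2.78%) and 3 and 0 of 15 in HOM (5.58% and 5.73%). A fold of 2 gave 0 and 1 in HET (0.654% and 1.29%) and 1 and 3 in HOM (1.42% and 2.89%). Cells with 1000 to 3000 molecules gave 1 and 1 of 15 in HET (5.72% and 6.82%) and 2 and 0 of 16 in HOM (7.83% and 8.66%). Cells with at least 2000 molecules gave 0 lower pairs of 24 in HET (7.68%) and 4 higher and 1 lower of 23 in HOM (9.52% and 13.4%), where fewer cells were used. The mean per cell gave 5 lower pairs in HET (9.02%). The other 16 counts were within 1.5 times the values given. Of 114 alternative log2 ratios of 12 named pairs, 87 moved by less than their counting error, 16 moved further and 11 reversed, and of 30 differences between progenitors with glia and neurons, 14 moved and 0 reversed.

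The Dll3 ratio of HET in Ganglionic eminences was -0.019 with at least 2000 molecules and -0.0066 without Olig1, Olig2 and Pdgfra, and that of HOM was -0.79 with 1000 to 3000 molecules. The Hes1 ratio of HOM in Astrocytes (immature) 2 was 0.41 with 1000 to 3000 molecules. Chosen after seeing the data, all mutant cells were set against WT cells with Xist, which are deeper because Xist had to be detected. Dll3 in Ganglionic eminences was then -1.01 in HET and -0.40 in HOM, and Hes5 in Astrocytes (immature) 2 was -0.48 and -0.82. With at least 2000 molecules in all cells, these Dll3 ratios were -0.71 and -0.22, and the Hes5 ratios in Astrocytes (immature) 2 were 0.20 in HET and -0.093 in HOM. Hes5 in Ganglionic eminences stayed above WT in both, at 0.07 in HET and 1.08 in HOM against all WT cells with Xist, and at 0.35 and 1.31 with at least 2000 molecules. Apart from the effect of fewer cells, the cause of these changes was not tested.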
